A study of Mus musculus with 4 samples.

Results

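The Sp factors are zinc finger transcription factors, and Sp1 to Sp8, 8 of the 23453 genes in the deposited table, were followed here by gene name. The set was chosen by the deposited group means of Sp7, near 0 in controls and well above it after stimulation, so the values and calls of Sp7 are given as a description and support nothing by themselves. The cells were hippocampal neurons of newborn C57BL/6NCrl mice, cultured for 12 days. One group received 50 µM bicuculline, which blocks GABA-A receptors and so evokes action potential (AP) bursting, and was harvested after 4 h. The control group received the vehicle DMSO and kept its basal synaptic activity. Each group had 2 libraries, and the series text names independent cell preparations. The labels name no transgene, and every library is a bulk sample of the culture.

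Sp factors share 3 zinc fingers of the C2H2 type near the C-terminus and bind GC boxes and related GT-rich elements. Sp1 and Sp3 are made in nearly all cells, Sp4 is abundant in the brain, and Sp2 is broadly expressed. Sp5 is a target and effector of Wnt signalling, Sp6 (epiprofin) acts in teeth and skin, and Sp8 acts in limb buds and in interneurons of the forebrain. Sp7, also called osterix, is required for osteoblasts to form bone and is known mainly from the skeleton.

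The GC box is the DNA element these proteins bind, and several Sp genes carry it upstream of their own start. RefSeq promoter windows of build GRCm38.p6 matched 6 of the 8 genes, with 11 annotated starts, and only the 250 bases before each start were searched. Sp6 and Sp7 had no entry. The core letters GGGCGG, on either strand and with overlapping matches counted, were present in 6 of these 11 windows, against 32.7% of 32851 windows of the same length over all genes. The 3 genes with 1 annotated start are shown, with GGGCGG or its reverse complement in capitals.
Sp1: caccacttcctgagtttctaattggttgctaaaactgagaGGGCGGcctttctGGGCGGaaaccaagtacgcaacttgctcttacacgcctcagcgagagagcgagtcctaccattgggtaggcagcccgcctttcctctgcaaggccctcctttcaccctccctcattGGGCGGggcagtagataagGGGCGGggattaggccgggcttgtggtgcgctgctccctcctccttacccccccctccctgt
Sp4: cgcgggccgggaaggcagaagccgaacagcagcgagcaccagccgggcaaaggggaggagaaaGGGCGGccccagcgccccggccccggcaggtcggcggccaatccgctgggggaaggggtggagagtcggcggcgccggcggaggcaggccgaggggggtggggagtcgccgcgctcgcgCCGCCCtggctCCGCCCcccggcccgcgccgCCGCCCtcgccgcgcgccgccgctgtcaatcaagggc
Sp5: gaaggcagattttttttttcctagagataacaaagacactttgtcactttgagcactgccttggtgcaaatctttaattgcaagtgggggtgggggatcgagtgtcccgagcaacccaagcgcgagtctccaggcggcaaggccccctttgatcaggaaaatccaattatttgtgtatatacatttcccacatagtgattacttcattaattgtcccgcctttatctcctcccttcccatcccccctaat
The Sp1 window lies at chr15:102406066-102406315 (+ strand), that of Sp4 at chr12:118301441-118301690 (- strand) and that of Sp5 at chr2:70474673-70474922 (+ strand). The windows of Sp1 and Sp4 held 4 matches each and that of Sp5 held 0. The 2 windows of Sp3 held 2 and 5 matches, 1 of 3 windows of Sp2 held 1, and 1 of 3 windows of Sp8 held 1. The cyclic AMP element TGACGTCA (1.55% of all windows), the AP-1 element TGACTCA (4.46%) and the CArG box of serum response factor (1.47%), each searched on both strands, were absent from all 11 windows. Windows of the same gene are not independent. The share of G and C ran from 40.8% in a window of Sp8 to 80% in that of Sp4. The comparison with all genes was not matched for this share. A match is a run of letters and not a measured binding site.

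Because the authors deposited a mean per group, the reads of each library were worked out from the means, as described with the processing. The values below are normalized reads, that is reads divided by the size factor of the library. Each group has a deeper and a shallower library. Size factors were 1.27 and 0.661 in the AP bursting libraries and 1.33 and 0.914 in the control libraries. Libraries of the same depth resembled each other across groups, and whether they come from the same preparation is not stated.

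Sp7 was at 99.2 and 156 normalized reads in the deeper and shallower AP bursting libraries, against 0 and 1.09 in the deeper and shallower control libraries. These values rest on 126 and 103 reads after AP bursting and on 0 and 1 read in controls. Both AP bursting libraries lay above both control libraries, and the means were 128 ± 40.1 and 0.547 ± 0.773 (SD, n = 2 each). Summed over libraries and scaled by the size factors, the ratio of AP bursting to control was 267, with an exact 95% interval of 47.4 to 10579. The interval covers counting error only, as do all intervals below, and its width comes from the 1 read in controls. In the authors' deposited table the fold of the means was 233. In bulk samples more cells with the transcript and more transcript per cell cannot be told apart.

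Sp7 was 1 of 13 genes with a control mean under 1 normalized read and an AP bursting mean of at least 10, among 3115 genes with such a control mean. By AP bursting mean it ranked highest of the 13. Sp7 was also among 11 of those 3115 genes with an adjusted p below 0.05 in the authors' deposited table. The 5 of the other 10 nearest to Sp7 by log2 of the AP bursting mean plus 1, were 4931440P22Rik (84.3 normalized reads after AP bursting), Lce1g (67.8), BX005163.13-2 and H2afb3 (46.3 each, with identical values) and Xirp1 (34.8). The libraries of some of these genes were less even than those of Sp7. The 4931440P22Rik gene had 12.6 normalized reads in the deeper and 156 in the shallower AP bursting library.

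**Figure D1:**
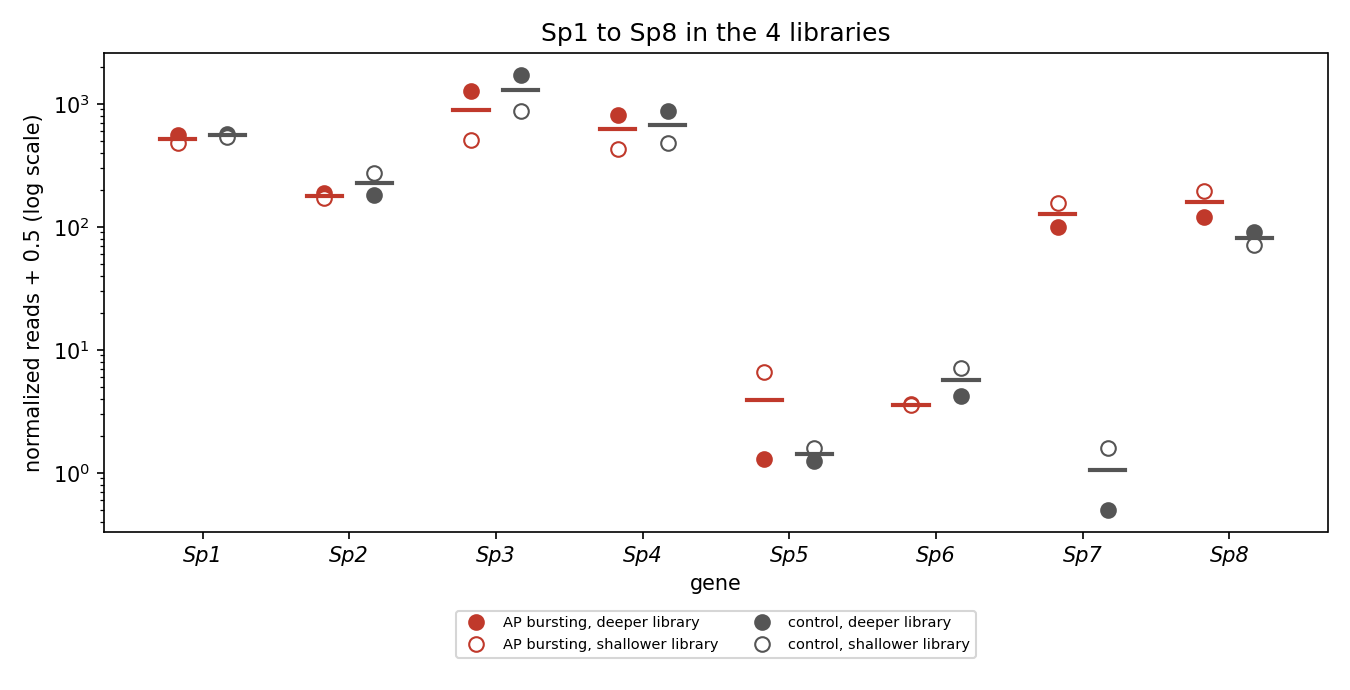
Normalized reads plus 0.5 (log scale) of Sp1 to Sp8 in each library, with AP bursting in red on the left and control in grey on the right, filled points for the deeper and open points for the shallower library, and bars at the group means. Sp7 is the gene whose libraries lie furthest apart between groups, while those of Sp1, Sp2, Sp3, Sp4 and Sp5 overlap.

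By the authors' adjusted p, as deposited, 1 of the 8 genes (Sp7) was higher and 0 were lower at the threshold of 0.05. Across the full table of 23453 genes 0.61% were higher and 0% lower at that threshold, and the call of Sp7 is what the set was chosen for. The other 7 genes had an adjusted p of 1 there. The smallest fold of any called gene was 4.00, so smaller changes were below what that test called in these data. On the worked-out libraries limma, which fits all genes together, called 0 of the 7 other genes without a replicate block, against 0.00989% of 20226 genes higher. It was also fitted with libraries of like depth as a block, a pairing inferred from the data. With this block limma called 1 of those 7 higher, Sp8, against 6.87% of genes, and 1 lower, Sp3, against 6.1%. In that fit the spread came from the trend over all genes and not from each gene's own libraries. Of the 7 genes other than Sp7, both AP bursting libraries lay above both control libraries for 1, Sp8, against 11.7% of 23162 genes with resolved libraries. They lay below for 1, Sp6, against 11% of genes. For Sp1, Sp2, Sp3, Sp4 and Sp5 the groups overlapped.

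Sp1, the founding member and an activator at many GC-rich promoters, was at 561 and 477 normalized reads in the deeper and shallower AP bursting libraries, against 567 and 537 in the control libraries. The groups overlapped, with means of 519 ± 59.7 and 552 ± 21.4 (SD, n = 2 each). The ratio of summed reads was 0.959, with an exact 95% interval of 0.882 to 1.04. Sp4, the brain-rich member, was at 812 and 431 normalized reads in the deeper and shallower AP bursting libraries, against 875 and 475 in the control libraries. Its ratio of summed reads was 0.957 (exact 95% interval 0.889 to 1.03). For Sp4 the deeper library exceeded the shallower one 1.88-fold after AP bursting and 1.84-fold in controls, a wider gap than that between the group means (622 ± 269 and 675 ± 283, SD, n = 2 each).

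Sp3, which activates or represses through the same GC boxes as Sp1, was at 1269 and 510 normalized reads in the deeper and shallower AP bursting libraries, against 1720 and 865 in the control libraries. Each AP bursting library was lower than the control library of like depth, but the groups overlapped, with means of 890 ± 537 and 1293 ± 604 (SD, n = 2 each). The fold was 0.688 in the authors' deposited table (adjusted p = 1). The ratio of summed reads was 0.735, and its exact 95% interval of 0.695 to 0.779 leaves out 1 for counting error alone. Within groups the deeper library exceeded the shallower one 2.49-fold after AP bursting and 1.99-fold in controls, more than the groups differed. Sp3 shares its locus with the antisense gene Sp3os, and the library kit kept no strand. Of the 36-base stretches in Sp3 transcripts, 1.54% also occur in another gene, Sp3os.

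Sp2 differs from Sp1 and Sp3 in its first zinc finger and often binds with NF-Y. It was at 188 and 170 normalized reads in the deeper and shallower AP bursting libraries, against 180 and 271 in the control libraries. The shallower control library stood above the other 3, which lay close together, and the groups overlapped. The fold in the authors' deposited table was 0.793 (adjusted p = 1). The ratio of summed reads was 0.838, with an exact 95% interval of 0.728 to 0.963. Among libraries of like depth the ratio was 1.05 (0.871 to 1.26) in the deeper and 0.625 (0.495 to 0.784) in the shallower ones. Sp2 overlaps the opposite-strand gene D030028A08Rik, at 96.7 normalized reads after AP bursting and 80.2 in controls, and the libraries kept no strand. Of the 36-base stretches in Sp2 transcripts, 2.7% also occur in that gene.

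Sp8 was at 120 and 195 normalized reads in the deeper and shallower AP bursting libraries, against 89.9 and 71.1 in the control libraries. Both AP bursting libraries were above both controls, with means of 158 ± 52.9 and 80.5 ± 13.3 (SD, n = 2 each). The fold was 1.96 in the authors' deposited table, where it did not pass (adjusted p = 1). The ratio of summed reads was 1.78, with an exact 95% interval of 1.47 to 2.15, so the reads differ by more than counting error. Among libraries of like depth the ratio was 1.34 (1.05 to 1.72) in the deeper and 2.75 (2.02 to 3.76) in the shallower ones, so its size differed between them.

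Sp5 and Sp6 were near the limit of detection. Sp5 had 1 and 4 reads in the deeper and shallower AP bursting libraries, against 1 and 1 in controls, and a ratio of summed reads of 2.91 with an exact 95% interval of 0.477 to 30.6. Sp6 had 4 and 2 reads in the deeper and shallower AP bursting libraries, against 5 and 6 in controls, and a ratio of 0.635 (exact 95% interval 0.193 to 1.87). A difference between groups was not detectable at this depth for either gene. In addition, 86.6% of the 36-base stretches in Sp6 transcripts also occur in the antisense gene Gm11532, so the strand of origin of the Sp6 reads is uncertain. For Sp5 the share of such stretches in another gene, Sp9, was 3.49%. Sp9 was at 416 normalized reads after AP bursting and 236 in controls, and its part in the Sp5 reads was not tested. The shares with other genes were 0.933% for Sp1, 0.358% for Sp7, 0.198% for Sp8 and 0% for Sp4.

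**Figure D2:**
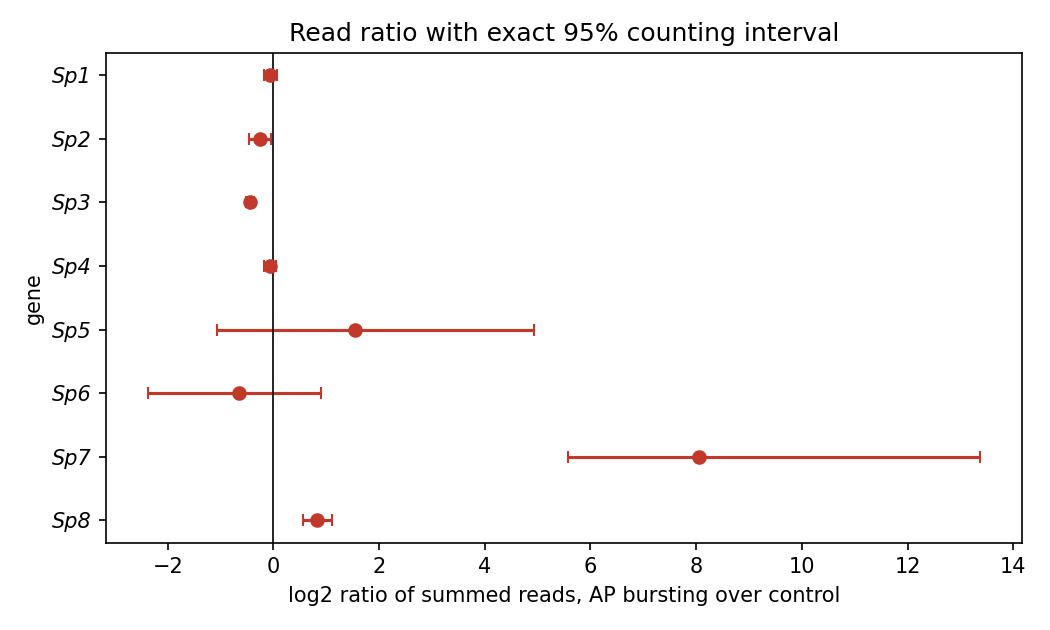
Log2 ratio of summed reads, AP bursting over control and scaled by the size factors, with exact 95% counting intervals, 1 row per gene. The intervals of Sp7 and Sp8 lie above 0, those of Sp2 and Sp3 below 0, and those of Sp1, Sp4, Sp5 and Sp6 cross it. They cover counting error and not the spread between libraries.

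Levels were compared between genes per kilobase of annotated exon. After AP bursting Sp3 stood at 180 normalized reads per kb, Sp4 at 108, Sp1 at 62.8, Sp2 at 52.4, Sp7 at 37.5, Sp8 at 34.6, Sp5 at 1.63 and Sp6 at 0.804. The libraries of neighbours in this order overlapped for Sp3 and Sp4, for Sp7 and Sp8, and for Sp5 and Sp6, and did not overlap for the others. In controls the order was Sp3 at 262 normalized reads per kb, Sp4 at 117, Sp1 at 66.8, Sp2 at 66.1, Sp8 at 17.7, Sp6 at 1.34, Sp5 at 0.439 and Sp7 at 0.161. There the libraries of Sp1 and Sp2 overlapped and those of the other neighbours did not. Sp7 was thus last of 8 in controls and stood level with Sp8 after AP bursting. Among all genes with an exon length its level per kb stood at the 46.1 percentile after AP bursting and at the 5.47 percentile in controls.

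Of the 8 Sp genes, 6 sit beside another one on the opposite strand. In the GENCODE annotation Sp7 and Sp1 are direct neighbours on chromosome 15, Sp4 and Sp8 on chromosome 12, and Sp2 and Sp6 on chromosome 11. Each of these neighbours is transcribed away from the other. Sp7 and Sp8 had higher means after AP bursting beside Sp1 and Sp4, whose means were slightly lower. Around Sp7 the other coding genes had similar levels in both groups. Aaas, a nuclear pore gene, was at 303 normalized reads after AP bursting and 299 in controls, with a fold of 1.01 in the authors' deposited table. Myg1 was at 274 and 280 normalized reads after AP bursting and in controls, and Amhr2, the receptor of anti-Müllerian hormone, at 3.06 and 2.73. No annotated gene overlaps Sp7. Around Sp4 and Sp8 the folds in the authors' deposited table were 1.52 for Dnah11, a dynein heavy chain, and 1.45 for Itgb8, an integrin subunit (adjusted p = 1 for both).

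**Figure D3:**
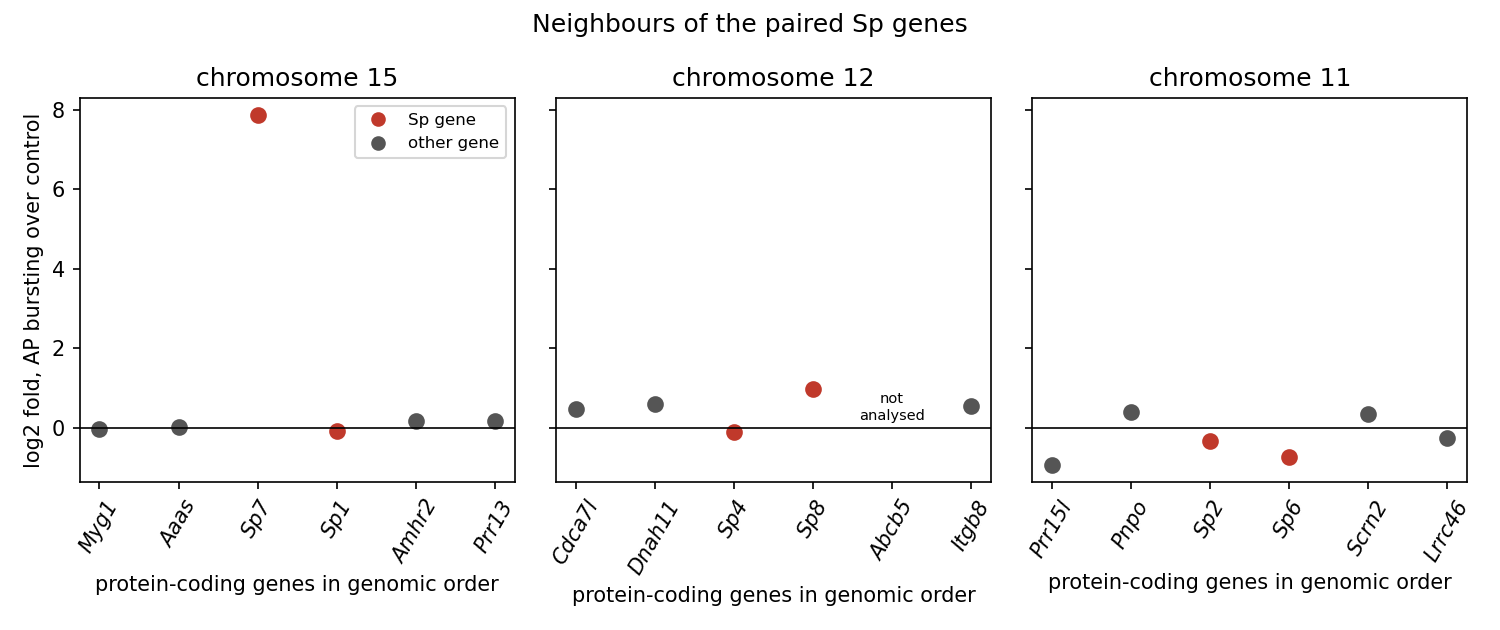
Log2 fold of AP bursting over control (y axis, from the authors' deposited table) for coding genes in genomic order around the 3 neighbouring Sp pairs, with Sp genes in red and others in grey. On chromosome 15 Sp7 stands far above 0 while Aaas, Myg1, Sp1 and Amhr2 lie close to it.

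Genes that act before Sp7 in bone formation include the bone morphogenetic proteins, their Smad mediators and the factors Runx2, Dlx5 and Msx2. Of 15 such genes, 0 were higher and 0 lower at the authors' threshold, against 0.61% and 0% of all genes. The median log2 fold of the 15 was 0.86, beside 0.01 for all genes with a fold, and both AP bursting libraries lay above both control libraries for 7 of them and below for 1, against 11.7% and 11% of all genes. A median above that of all genes was not particular to this list. For the cell type markers given below the medians were 0.90 for microglia, 0.49 for interneurons and 0.35 for the oligodendrocyte lineage. They were 0.29 for fibroblasts and meninges, 0.28 for astrocytes, 0.23 for neurons, -0.02 for cycling cells and -0.28 for endothelium and pericytes. The most abundant of the 15 upstream genes were Smad1 (794 normalized reads after AP bursting and 566 in controls), Smad5 (776 and 742) and Cbfb, the partner of Runx factors (625 and 701). The following genes were named after their values were seen. Runx2, which is required upstream of Sp7 in bone, was at 85.0 and 192 normalized reads in the deeper and shallower AP bursting libraries, against 48.7 and 62.3 in controls. Its fold was 2.50 in the authors' deposited table (adjusted p = 1). Bmp2, a ligand that induces Sp7 in bone cells, was at 159 and 120 normalized reads in the deeper and shallower AP bursting libraries, against 42.0 and 29.5 in controls (adjusted p = 0.528 in the authors' deposited table). For both genes the groups did not overlap. Twist1, an inhibitor of Runx2, was at 5.51 and 3.03 normalized reads in the deeper and shallower AP bursting libraries, against 18.0 and 12.0 in controls. These values of Twist1 rest on 7 and 2 reads after AP bursting and on 24 and 11 in controls. For Dlx5, Msx2, Bmp6, Bmp7, Dlx3, Smad5 and Cbfb the groups overlapped. Dlx5 was at 132 and 274 normalized reads in the deeper and shallower AP bursting libraries, against 132 and 168 in controls.

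Genes of osteoblast matrix and mineral include collagens, small proteoglycans and regulators of phosphate. Of 17 listed genes 14 were measured, and 0 were higher and 0 lower at the authors' threshold. Bglap, Mepe and Sost were not analysed here. The median log2 fold of the 14 was 0.37, and both AP bursting libraries lay above both control libraries for 2 of them, Sparc and Dmp1, and below for 0, against 11.7% and 11% of all genes. Sparc, a collagen-binding matrix protein, was at 3191 normalized reads after AP bursting and 2474 in controls, Col5a1 at 378 and 340, and Col1a1 at 373 and 211. Phex, a peptidase that controls phosphate in bone and is named here after its value was seen, was at 137 and 9.08 normalized reads in the deeper and shallower AP bursting libraries, against 29.2 and 5.47 in controls. The deeper libraries of Phex were the high ones in both groups, and the groups overlapped (adjusted p = 0.502 in the authors' deposited table). Ibsp, the bone sialoprotein, was at 38.6 and 7.57 normalized reads in the deeper and shallower AP bursting libraries, against 40.5 and 16.4 in controls. Bglap2, an osteocalcin gene, had 1 read in all after AP bursting and 3 in controls.

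**Figure D4:**
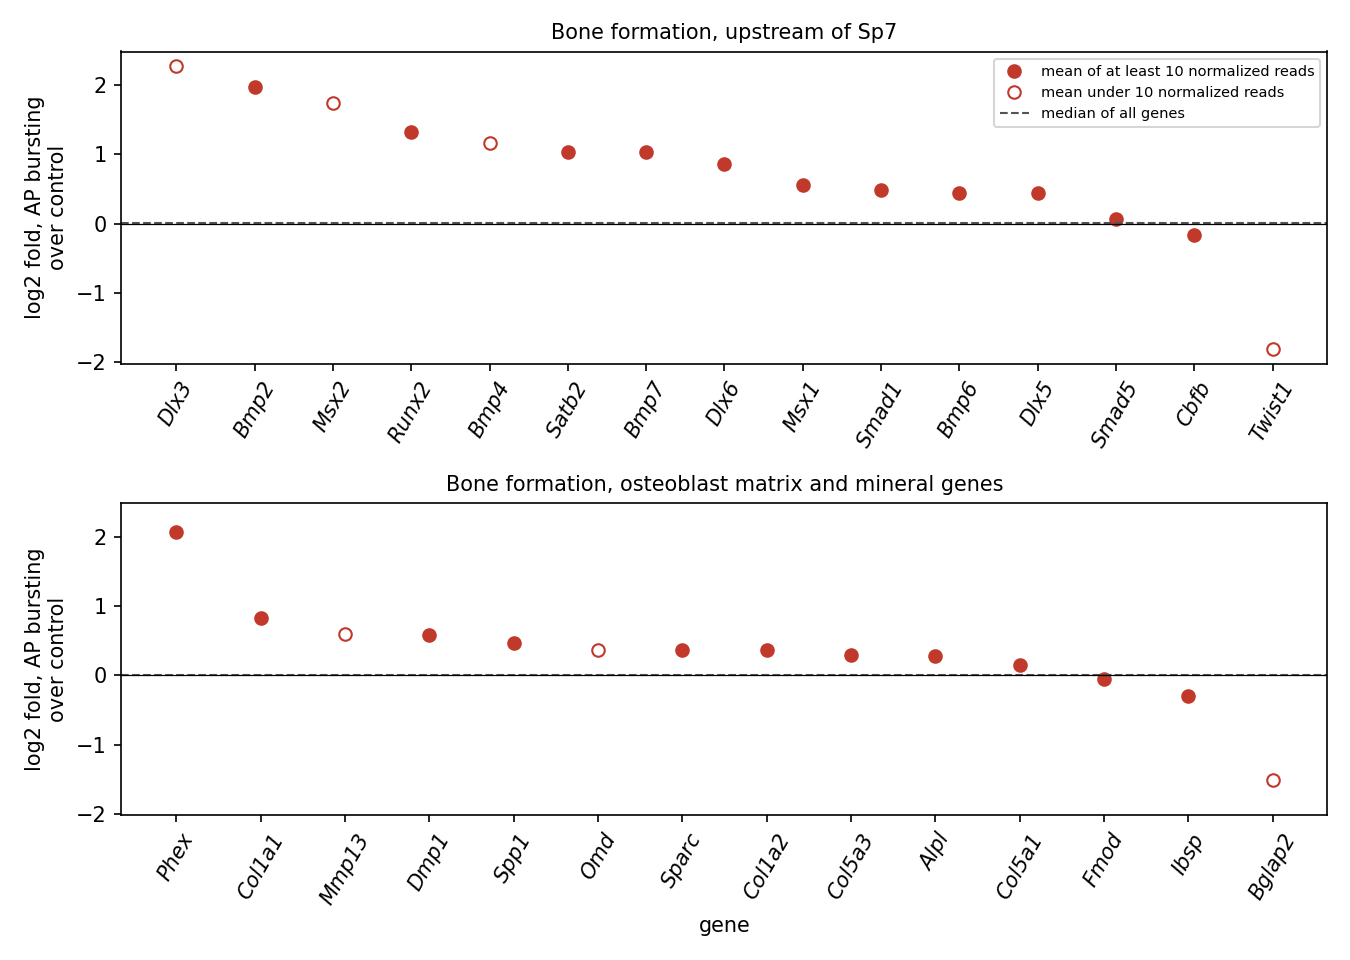
Log2 fold of AP bursting over control (y axis, from the authors' deposited table) for genes upstream of Sp7 in bone (top) and for osteoblast matrix and mineral genes (bottom), with open points for genes under a mean of 10 normalized reads and a dashed line at the median of all genes. The upper list has a median of 0.86 and the lower one of 0.37, and no point passed the authors' threshold.

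Markers of the cell types the cultures could hold were measured beside these values. The neuronal genes Camk2a, Snap25 and Slc17a7 were at 32025, 26837 and 22675 normalized reads after AP bursting and at 27390, 22001 and 19826 in controls. Tubb3, a neuronal tubulin, was at 15992 normalized reads after AP bursting and 20881 in controls. Of 5 measured neuronal markers, 0 passed the authors' threshold. The 6 measured markers of osteoblasts and osteocytes summed to 393 and 310 normalized reads in the deeper and shallower AP bursting libraries, against 205 and 173 in controls, mainly from Runx2, Phex, Dmp1 and Alpl. Of these 6, 0 passed the authors' threshold. All of them are also in the bone lists above, so their sum is not a separate measurement. The groups overlapped for Phex, Alpl, Ibsp and Bglap2, and the means of Ibsp and Bglap2 were lower after AP bursting. The 6 fibroblast and meningeal markers summed to 1780 and 2074 normalized reads in the AP bursting libraries and to 1556 and 1519 in controls, with Dcn, Col3a1 and Col1a1 leading. Of these markers, Col1a1 and Col1a2 are also in the osteoblast matrix list above. Sums of other markers were 70.0 normalized reads after AP bursting and 54.3 in controls for microglia, 17745 and 14606 for astrocytes, 1542 and 1239 for the oligodendrocyte lineage, 139 and 140 for endothelium and pericytes, and 284 and 301 for cycling cells. The library sums of microglia, astrocytes, the oligodendrocyte lineage, endothelium and pericytes, and cycling cells overlapped between groups. For astrocytes they were 14714 and 20777 in the deeper and shallower AP bursting libraries, against 13499 and 15713 in controls. The part of any of these cell types in the values of Sp7 was not tested.

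Sp8 acts with Dlx and Nr2f factors in interneuron precursors of the ventral forebrain. Of 12 listed genes of interneuron precursors, not all of them known partners of Sp8, 0 passed the authors' threshold in either direction. Their median log2 fold was 0.53. Both AP bursting libraries lay above both control libraries for 5 of them, Dlx1, Dlx6, Lhx6, Nr2f1 and Nr2f2, and below for 0, against 11.7% and 11% of all genes. Nr2f1, an orphan nuclear receptor of developing interneurons and cortex, was at 1563 and 4753 normalized reads in the deeper and shallower AP bursting libraries, against 964 and 1513 in controls. Dlx1 was at 1415 and 1925 normalized reads in the AP bursting libraries, against 1087 and 1088 in controls. Sp9, a further Sp gene that works with Sp8, was at 157 and 674 normalized reads in the deeper and shallower AP bursting libraries, against 136 and 336 in controls, and its groups overlapped. The 7 interneuron markers, Gad1 and Gad2 among them, summed to 44217 normalized reads after AP bursting and 30987 in controls, and 0 of the 7 passed. Among these markers the groups overlapped for Gad2, Slc32a1, Sst, Vip and Pvalb but not for Npy, and the libraries of Gad1 were not resolved. Pvalb was at 46.7 normalized reads after AP bursting and 53.5 in controls. The part of the interneuron markers in the values of Sp8 was not tested.

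Sp1 and Sp3 work with acetyltransferases, deacetylases, NF-Y and the sugar transferase Ogt. Of 15 such cofactors, 0 passed the authors' threshold in either direction, with a median log2 fold of -0.11. Both AP bursting libraries lay above both control libraries for 0 of them and below for 3, Nfya, Nfyc and Pias1, against 11.7% and 11% of all genes. Ogt was at 4918 normalized reads after AP bursting and 5016 in controls, the coregulator Hcfc1 at 4439 and 4021, Crebbp at 2400 and 1752, and Ep300 at 1992 and 1921. Among 12 Wnt targets, Sp5 included, 0 passed in either direction. Their median log2 fold was 0.12 over the 11 with reads in both groups. For 2 of the 12, Lef1 and Lgr5, both AP bursting libraries lay above both control libraries, and for 0 they lay below. The shares of all genes were 11.7% and 11%. In the authors' deposited table the folds were 3.29 for Lef1, 4.05 for Lgr5 and 5.35 for Rnf43, whose groups overlapped. These genes were named after their values were seen. Axin2, a feedback inhibitor of Wnt signalling, was at 349 normalized reads after AP bursting and 281 in controls, and Znrf3, which removes Wnt receptors, at 354 and 400. Nkd2, an inhibitor of Dishevelled, was at 325 normalized reads after AP bursting and 437 in controls, and Apcdd1, a Wnt inhibitor at the cell surface, at 296 and 288.

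Other zinc finger factors that read GC-rich DNA did include called genes. Of 24 Klf, Egr and related genes, 6 were higher and 0 lower at the authors' threshold, against 0.61% and 0% of all genes, with a median log2 fold of 0.62. These 6 were Egr1, Egr2, Egr3, Egr4, Klf4 and Klf14. The fold of Klf4, a relative of the Sp factors, was 34.6 in the authors' deposited table (adjusted p = 4.64e-09). Klf4 was at 170 and 917 normalized reads in the deeper and shallower AP bursting libraries, against 15.0 and 16.4 in controls. Klf14 was at 93.7 and 197 normalized reads in the deeper and shallower AP bursting libraries, against 23.2 and 16.4 in controls (adjusted p = 0.0432 in the authors' deposited table). Egr1, an immediate-early factor, was at 24572 normalized reads after AP bursting and 1344 in controls. Among abundant members without a call, Maz was at 3789 normalized reads after AP bursting and 3479 in controls, and Klf7 at 2718 and 3797.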

How the data were processed

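RNA was sequenced from 2 AP bursting and 2 control libraries. The submitters' processing notes list DESeq 1.12.0, SAMtools 0.1.19 and TopHat 1.2.0, with mm9 as the build. Which program counted the reads, and on what gene models, is not given in the sources used here. Per the file headers, the deposited values are the mean normalized signal of each group, their ratio (fold, AP bursting over control) and the authors' adjusted p-value. Their log2 column held 1121 cells that were not numbers, so log2 was taken of the deposited fold instead. Per-sample columns left out numbered 0.

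In a mean of 2 libraries each read of a library adds a fixed amount. Both amounts were estimated from low values, and then the whole read numbers that give each mean within 1.1 times its rounding (10 printed digits) were sought. A single pair was found for 99.5% of AP bursting and 98.8% of control values. The rest, abundant genes, had more than a single pair and were left unresolved. Of 2000 values moved at random, 4 and 2 in these groups found a pair, under a tighter tolerance than the one used for the data. Reads in resolved genes numbered 25151706 and 12963459 in the AP bursting libraries and 20954659 and 13337809 in the control libraries. All 8 Sp genes were resolved, and libraries were named by depth.

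The main test is the authors' adjusted p at a threshold of 0.05. limma 3.58.1 (R 4.3.3), with a trend, was run as an alternative on log2(value + 1) of the 20226 resolved genes whose mean reached 1. It used two-sided p-values and Benjamini-Hochberg adjustment. It was also run on simulated data in which libraries of like depth shared their deviations. That run assumes the inferred pairing and cannot test it. A lone library is assumed to vary like the others. Exact 95% intervals of read ratios are binomial, conditional on the summed reads, and cover counting error only. Exon lengths, neighbours and 36-base matches came from GENCODE M21 (GRCm38), whose build differs from that of the table; 88.9% of genes had a length.

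Named genes were those past the threshold and the 3 most abundant in either group in each of 6 lists of related genes, plus others named as seen; 1 listed gene is not reported here. These 6 lists, the 9 marker lists and the Sp genes were chosen with earlier results of these data known.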

Additional observations from a re-analysis of the deposited data

How the results depend on the processing

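Of the 8 Sp genes, the log2 folds of Sp2, Sp6, Sp7 and Sp8 kept their sign under every alternative run. That of Sp2 was only -0.010 without the shallower control library, and Sp6 rests on few reads. The fold of Sp7 depends on the pseudocount because its controls hold 1 read. Its log2 fold was 7.87 from the deposited fold, 6.38 with a pseudocount of 1, 4.58 with a pseudocount of 5 and 6.44 in limma with or without the replicate block. Scaling to total resolved reads gave a median log2 fold of -0.15 over 20088 genes whose mean reached 1, and moved Sp1 to -0.24 and Sp4 to -0.26.

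The labels number the replicates, but the resolved libraries carry no number. Deviations of like-depth libraries correlated at r = 0.881 across 13315 genes, which are not independent replicates, so these were used as a replicate block by inference from the data. With the block limma called 3 Sp genes: Sp7, for whose difference the set was chosen, Sp8 (log2 fold 0.93, adjusted p = 0.00833) and Sp3 (log2 fold -0.60, adjusted p = 0.0166). It called 2624 genes in all, 6.87% of genes higher and 6.1% lower. The p-values of the fit with the block take the spread from the trend over all genes. They do not measure the spread of each gene's own libraries. Without the block limma called 0 Sp genes and 2 genes in all, with 668 genes at an unadjusted p under 0.05; the cause was not tested. The authors' adjusted p called 143.

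In leave-one-out fits the log2 fold ranged from -0.21 to 0.024 for Sp1, -0.60 to -0.010 for Sp2 and -1.26 to 0.057 for Sp3. It ranged from -0.58 to 0.33 for Sp4, -0.10 to 1.88 for Sp5 and -0.89 to -0.22 for Sp6. For Sp7 the range was 5.90 to 6.97, and for Sp8 it was 0.58 to 1.28. Sp1, Sp3, Sp4 and Sp5 changed sign without the shallower AP bursting library, Sp4 also without the deeper control library. These fits had no block, so leaving out a library also made the groups differ in depth. Between libraries of like depth (deeper, then shallower) the log2 ratio was -0.44 and -0.76 for Sp3 and -0.11 and -0.14 for Sp4. It was -0.015 and -0.17 for Sp1, and 0.071 and 2.47 for Sp5, which has few reads. The number of Sp genes called ranged from 0 to 1, and of all genes from 2 to 28. The fits without the shallower AP bursting library or either control library called 0 Sp genes, with 535, 362 (deeper control left out) and 288 (shallower control left out) genes at an unadjusted p under 0.05. Depth limits Sp5 and Sp6, with 2 to 11 reads per group.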
